A study of Mus musculus with 15 samples.

Results

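The fat around the abdominal aorta was compared with the fat around the thoracic aorta in control mice, using 8 of the 15 RNA-seq libraries of the series: 4 of abdominal and 4 of thoracic perivascular adipose tissue (aPVAT and tPVAT). The 8 libraries were chosen by their labels alone, and every gene of the count table was considered. The mice were 11 weeks old and were labelled Prdm16flox, that is, they carried Prdm16 alleles flanked by loxP sites, and their labels name no Cre. All 15 libraries share that allele. The other 7 libraries came from mice labelled Prdm16flox, AdipoQCre+ (cKO), in which an Adipoq promoter expresses Cre in adipocytes; they entered the fit and the test of whether a depot difference changed with genotype. The labels do not give sex or strain, and do not say whether the samples of a group were separate animals or pools. The p-values therefore measure the spread between these samples.

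Perivascular fat lies against the outer wall of the artery and exchanges lipids and vasoactive factors with it. In rodents the fat around the thoracic aorta resembles brown fat, which burns lipid to make heat through the uncoupling protein Ucp1 in mitochondria. The fat around the abdominal aorta resembles white or beige fat, which stores lipid and secretes adipokines. Prdm16 encodes a transcriptional coregulator known for holding adipocytes in the thermogenic state.

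Total counts per library were 50572494 to 66903054 in aPVAT and 55565579 to 67072993 in tPVAT. Levels are given in CPM, the usual unit of counts relative to library size, here with the library size scaled by TMM, and differences as log2 of aPVAT over tPVAT with the standard error (SE) of the fit. Of 43352 genes in the table, 19645 had enough counts to be tested. A gene passed when its adjusted p in edgeR's quasi-likelihood test was under 0.05. Of all genes tested, 11122 passed (56.6%), 5750 higher in aPVAT (29.3%) and 5372 higher in tPVAT (27.3%). At least 2-fold, 1847 were higher in aPVAT (9.4%) and 1655 higher in tPVAT (8.42%). The 4 aPVAT and the 4 tPVAT libraries did not overlap in CPM for 9730 genes (49.5%). The first axis of a principal component analysis of the 8 libraries held 68.8% of the variance and parted the depots. The counts of gene list members are to be read against these shares. Scaling by total counts alone, without TMM, moved the median gene from 0.04 to 0.78 and the share of called genes that were higher in aPVAT from 51.7% to 91.2%. The directions given below are relative to the median gene, and a gene lower in aPVAT by less than about 0.75 does not keep that direction when total counts alone are used.

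**Figure D1:**
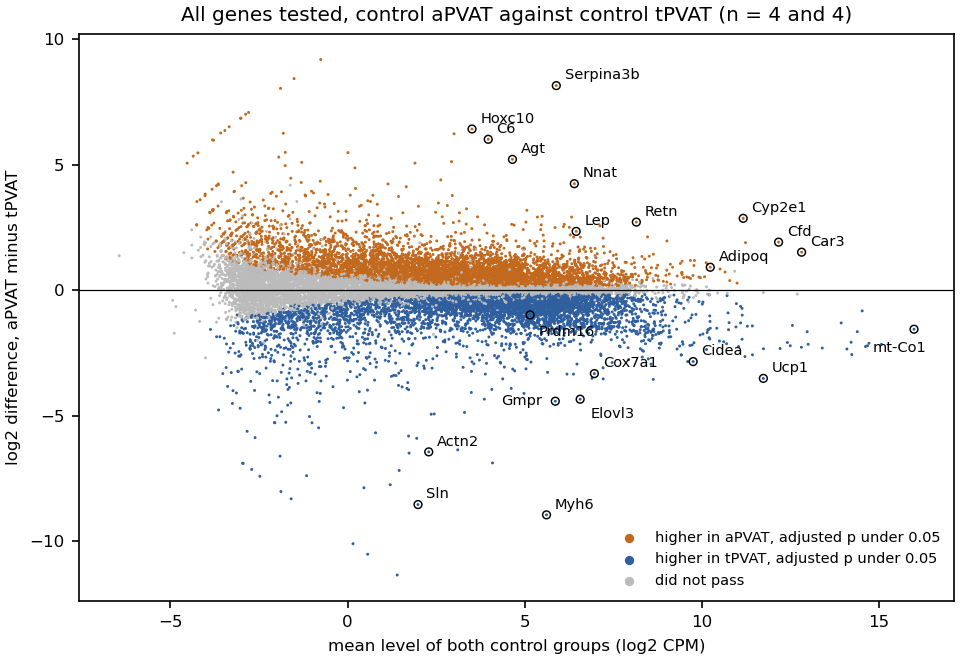
Each point is a gene, with its mean level over the control groups on the x axis (log2 CPM) and its log2 difference, aPVAT minus tPVAT, on the y axis; genes that passed are orange (5750, higher in aPVAT) or blue (5372, higher in tPVAT). The most extreme points at low levels are genes with few or no reads in 1 depot, whose fitted difference is not a measured fold.

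The 15 largest folds higher in aPVAT included 4 serpins and 3 Hox genes. Serpina3b, a serine protease inhibitor of the mouse serpin A3 cluster, stood at 144, 91.5, 107 and 130 CPM in aPVAT and at 0.277, 0.45, 0.276 and 0.665 CPM in tPVAT (log2 difference 8.15, SE 0.319, adjusted p = 6.86e-11). It lies on chromosome 12 at 104127996 to 104139545 of GRCm38. Its neighbours Serpina3j (6.23), Serpina3k (4.39) and Serpina3m (3.73), between 104314553 and 104394257 of the same chromosome, were higher in aPVAT too. These paralogs are similar in sequence and Serpina3k lies within the span of Serpina3m, so their reads could be shared. C6, a component of the membrane attack complex of complement, stood at 22.5 to 37.3 CPM in aPVAT and at 0.299 to 0.824 CPM in tPVAT (6.01, SE 0.292). The estrogen sulfotransferase Sult1e1 (3.77), the extracellular matrix glycoprotein tenascin-R, encoded by Tnr (3.47), and the transporter Slc16a12 (3.34) followed. No value of these genes in 1 depot reached that of the other, which the rule for naming the largest folds required.

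In the other direction, 13 of the 15 genes with the largest folds higher in tPVAT are known from striated muscle. They were Ckmt2, Myh6, Sln, Myh7, Mb, Cox6a2, Actn2, Myl7, Myoz2, Ckm, Ttn, Tnni3 and Tnnt2. The other 2 were brown fat genes. Gmpr, a GMP reductase, stood at 4.37 to 6.72 CPM in aPVAT and at 74.6 to 131 CPM in tPVAT (-4.43, SE 0.211). Elovl3, a fatty acid elongase induced in brown fat, stood at 13.4, 6.84, 7.79 and 7.12 CPM in aPVAT and at 179, 161, 190 and 190 CPM in tPVAT (-4.35, SE 0.259).

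By the size of the difference in CPM, abundant adipocyte and secreted genes led in aPVAT and mitochondrial genes led in tPVAT. Car3, a carbonic anhydrase abundant in adipocytes, stood at 10646 ± 665 CPM in aPVAT and 3728 ± 276 in tPVAT (SD, n = 4 each). Cfd, the complement factor adipsin, stood at 7239 ± 432 and 1925 ± 268 CPM. Cyp2e1, a cytochrome P450 monooxygenase, stood at 4029 ± 516 and 556 ± 16.1 CPM. Gsn (1.89), Cidec (0.84), Apoe (1.09), Sparc (0.72) and Col3a1 (1.03) made up the 8 genes of this kind. The 8 genes with the largest differences toward tPVAT were all protein genes of the mitochondrial genome, led by mt-Co1 at 32760 ± 1704 CPM in aPVAT and 96806 ± 3980 in tPVAT.

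Hox genes, whose order along 4 chromosome clusters matches the order of their domains from head to tail in the embryo, differed by their place in the cluster. Of 39 Hox genes, 32 were tested, and 16 were higher in aPVAT, 14 were higher in tPVAT and 2 did not pass. All 11 tested genes of paralog groups 9 to 13 were higher in aPVAT. Of the 13 tested genes of groups 1 to 5, 11 were higher in tPVAT, and the exceptions were Hoxd3 (2.77) and Hoxd4 (1.66). Groups 6 to 8 were mixed: Hoxc6, Hoxc8 and Hoxd8 were higher in aPVAT, Hoxa7, Hoxb6 and Hoxb8 were higher in tPVAT with a sign that turned with total counts alone, and the other 2 did not pass. With total counts alone the anterior differences shrank or turned: Hoxa4, Hoxa5, Hoxb4, Hoxc4 and Hoxc5 stayed lower in aPVAT and called, while Hoxa2 and Hoxa3 had values of 0.10 and 0.13. Groups 9 to 13 stayed higher in aPVAT under that scaling.

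Hoxc10, on chromosome 15 at 102966796 to 102971893, stood at 26.2, 19.8, 23.1 and 21 CPM in aPVAT and at 0.495, 0.187, 0.161 and 0.183 CPM in tPVAT (6.42, SE 0.23, adjusted p = 5.38e-11). Hoxa10 stood at 12.7 to 17.8 CPM in aPVAT and at 0.184 to 0.633 CPM in tPVAT (5.12, SE 0.22). Hoxc9 (3.37) and Hoxd9 (2.62) showed the same order with smaller gaps, and Hoxb9, the group 9 gene of the fourth cluster, differed least (1.12, SE 0.158). Hoxa11 had 67 to 118 reads in each aPVAT library and no read in any tPVAT library, at least 73.7-fold higher against a floor of 3 reads over the 4 tPVAT libraries. Hoxc11, Hoxa13 and Hoxd11 also had no read in tPVAT, and were at least 17.1-fold, 16.1-fold and 5.54-fold higher in aPVAT. On the anterior side Hoxa5 stood at 9.61 to 12.2 CPM in aPVAT and at 33.1 to 37.1 CPM in tPVAT (-1.64, SE 0.114), and Hoxa4 differed most (-2.25, SE 0.175).

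**Figure D2:**
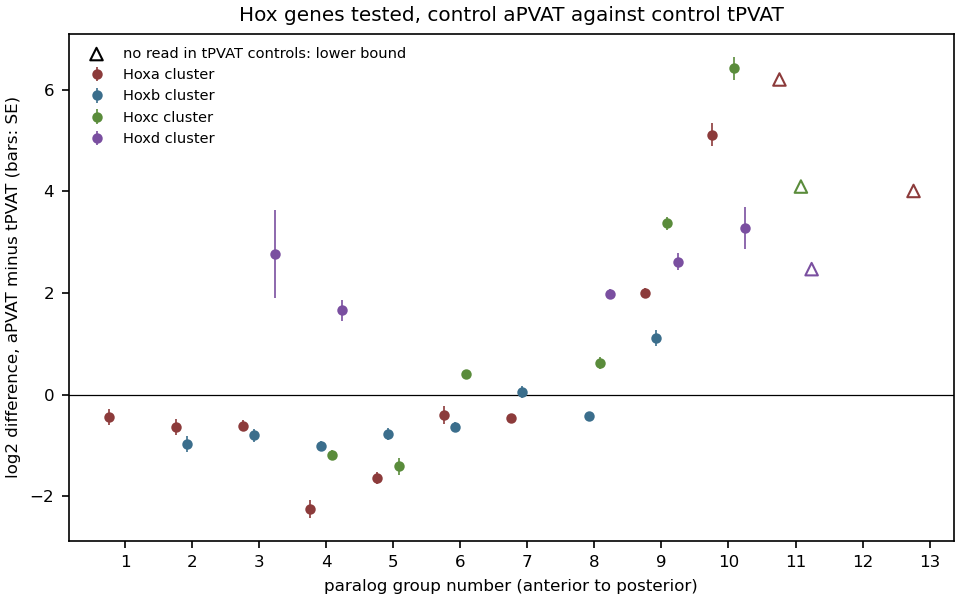
The x axis gives the paralog group of each tested Hox gene and the y axis its log2 difference, aPVAT minus tPVAT, with the SE as bars; colours mark the 4 clusters. Groups 9 to 13 lie above 0, groups 1 to 5 lie below 0 except Hoxd3 and Hoxd4 (with total counts alone some of these, such as Hoxa2 and Hoxa3, do not), and triangles are lower bounds for genes without reads in tPVAT.

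Other transcription factors that lay out the body differed in both directions, with 24 of 61 tested higher in aPVAT, 17 higher in tPVAT and 20 not passing. Higher in aPVAT were Tcf21, a mesenchymal factor of visceral organs (2.26 to 3.23 CPM against 0.16 to 0.319, 3.56, SE 0.266) and the orphan receptor gene Nr2f2 (1.0, SE 0.0795). Pitx1, a homeobox gene of the hindlimb, had 175 reads in the 4 aPVAT libraries and 1 read in tPVAT, a ratio of 106 with a counting interval of 18.8 to 4219. Lhx9 had 170 reads against 3, a ratio of 34.4 with an interval of 11.6 to 168. Higher in tPVAT was Tbx5, a T-box gene of the forelimb and heart (0.613 to 1.19 CPM in aPVAT and 4.16 to 5.08 in tPVAT, -2.52, SE 0.19). The retinoic acid receptor gene Rarb (-1.56) and the pharyngeal genes Pax9 (-1.72), Pax1 (-1.36) and Tbx1 (-1.36) were also higher in tPVAT. The classical brown fat marker Zic1 had 0 to 2 reads in each library of both depots and was not tested. The brown and beige markers Lhx8 (-0.69) and Tbx15 (-0.60) passed with levels under 2 CPM, and their sign turned with total counts alone (0.05 and 0.14). Tbx15, whose libraries overlapped, also lost its call with 6 other settings and without any 1 of 6 control libraries (adjusted p = 0.0536 to 0.187). Wt1, a gene of visceral fat and mesothelium, did not pass (0.15, adjusted p = 0.759).

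Thermogenic genes stood lower in aPVAT: of 36 members all were tested, 34 were higher in tPVAT, 32 of them at least 2-fold, and 2 were higher in aPVAT. The median difference was -2.76, against 0.04 for all genes, and -2.02 with total counts alone. Ucp1 stood at 724, 363, 731 and 365 CPM in aPVAT and at 6358, 5935, 6581 and 6154 CPM in tPVAT (-3.52, SE 0.597, adjusted p = 0.000116). It lies on chromosome 8 at 83290352 to 83298452. Within aPVAT, libraries 1 and 3 held about 2 times the Ucp1 level of libraries 2 and 4, and all 4 lay far below the lowest tPVAT library. Cidea, a lipid droplet protein of brown fat, stood at 175 to 252 CPM in aPVAT and at 1455 to 1579 CPM in tPVAT (-2.85, SE 0.128). Dio2, the deiodinase that activates thyroid hormone, stood at 11, 25.9, 26.7 and 18.1 CPM in aPVAT and at 124, 148, 209 and 149 CPM in tPVAT (-2.95, SE 0.274). The malic enzyme Me3 (-3.07), the potassium channel gene Kcnk3 (-2.34) and the kininogen gene Kng2 (-4.12) showed the same order. The 2 members that were higher in aPVAT were the fatty acid transporter gene Slc27a1 (469 ± 35.9 against 199 ± 23.3 CPM, 1.24, SE 0.105) and Adrb3, the adipocyte adrenergic receptor (0.39, SE 0.144). Adrb3 did not pass without aPVAT control 2 or 4 or tPVAT control 3 or 4 (adjusted p = 0.0625 to 0.082). Adrb1, the other adrenergic receptor of brown adipocytes, stood at 4.02 to 8.19 CPM in aPVAT and 16.9 to 28.3 CPM in tPVAT (-2.06, SE 0.255).

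The regulators of the brown program differed in part. Of 37 members 18 were higher in tPVAT, 5 were higher in aPVAT and 14 did not pass; 10 were at least 2-fold higher in tPVAT and 2 at least 2-fold higher in aPVAT, with a median of -0.27 that turned to 0.47 with total counts alone. The coactivator Ppargc1a stood at 6.6, 13.7, 10.5 and 6.45 CPM in aPVAT and at 48.7, 47.8, 43 and 40.5 CPM in tPVAT (-2.28, SE 0.209). Its relative Ppargc1b (-2.38), the estrogen-related receptors Esrrg (-2.57) and Esrra (-1.64), the lipid-sensing receptor Ppara (-2.20) and Cebpb (-2.08) differed by as much. Prdm16 stood at 26.8, 21.4, 23.3 and 23.4 CPM in aPVAT and at 46.4, 41.1, 46.3 and 55.6 CPM in tPVAT (-0.99, SE 0.0964), and kept its call with total counts alone (-0.25). Ebf2, a factor of brown progenitors, differed by -0.63 (SE 0.0855), which turned to 0.11 with total counts alone. Higher in aPVAT were Cebpd (1.13), the corepressor Nrip1 (1.04), Rxra (0.61), Zfp423, a factor of white adipocyte identity (0.53), and Foxc2 (0.52). Irf4 (-0.16, adjusted p = 0.455) and Zfp516 (0.08, adjusted p = 0.484), which encode activators of the thermogenic program, were among those that did not pass.

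Genes selective for white adipocytes stood higher in aPVAT, with 14 of 19 tested higher in aPVAT, 12 of them at least 2-fold, 1 higher in tPVAT and 4 not passing. The median was 1.45. Agt, the precursor of the angiotensin peptides, stood at 55.1, 44.9, 38.9 and 56.5 CPM in aPVAT and at 1.35, 1.63, 0.873 and 1.4 CPM in tPVAT (5.21, SE 0.195, adjusted p = 5.41e-11; chromosome 8, 124556534 to 124569706). Retn, the adipokine resistin, stood at 426 to 525 CPM in aPVAT and at 66.9 to 81.6 CPM in tPVAT (2.71, SE 0.121). Psat1 of serine synthesis (2.91, SE 0.0987) and Nnat, an imprinted gene (4.24, SE 0.448), were higher in aPVAT too. Lep, the satiety hormone leptin, stood at 233, 65.6, 168 and 116 CPM in aPVAT and at 55.7, 14.1, 18.9 and 26 CPM in tPVAT (2.34, SE 0.41). The lowest aPVAT library lay close above the highest tPVAT library for Lep. The member higher in tPVAT was the lipoprotein receptor gene Vldlr (-1.30).

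Both depots carried the genes that all adipocytes use. Of 20 members 8 were higher in aPVAT, 6 were higher in tPVAT and 6 did not pass, and the median of 0.03 lay near that of all genes (0.04). With total counts alone 16 were higher in aPVAT and 1 in tPVAT, with a median of 0.78 that is also the median of all genes under that scaling. Fabp4, a fatty acid binding protein, stood at 5700 to 6532 CPM in aPVAT and at 6491 to 7160 CPM in tPVAT (-0.16, adjusted p = 0.133), and passed in the 8 control libraries alone (-0.22, adjusted p = 0.023). The lipid droplet coat gene Plin1 (0.16, adjusted p = 0.112; 0.25 and passing with upper quartile scaling) and the lipase gene Lpl (-0.10, adjusted p = 0.573) did not pass. Adipoq, the adipokine adiponectin, stood at 1382 to 1727 CPM in aPVAT and at 807 to 883 CPM in tPVAT (0.91, SE 0.095). Cfd (1.91), the thyrotropin receptor gene Tshr (1.73) and Plin4 (1.18) were higher in aPVAT, and the insulin-regulated glucose transporter Slc2a4 (-1.27), Pck1 (-0.91), the glycerol channel Aqp7 (-0.85) and Pparg, the master regulator of fat cell formation (-0.55, turning to 0.19 with total counts alone), were higher in tPVAT. Aqp7 (-0.11) and Pck1 (-0.16) did not pass with total counts alone. In bulk tissue, fewer cells of a type and less RNA per cell cannot be told apart.

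**Figure D3:**
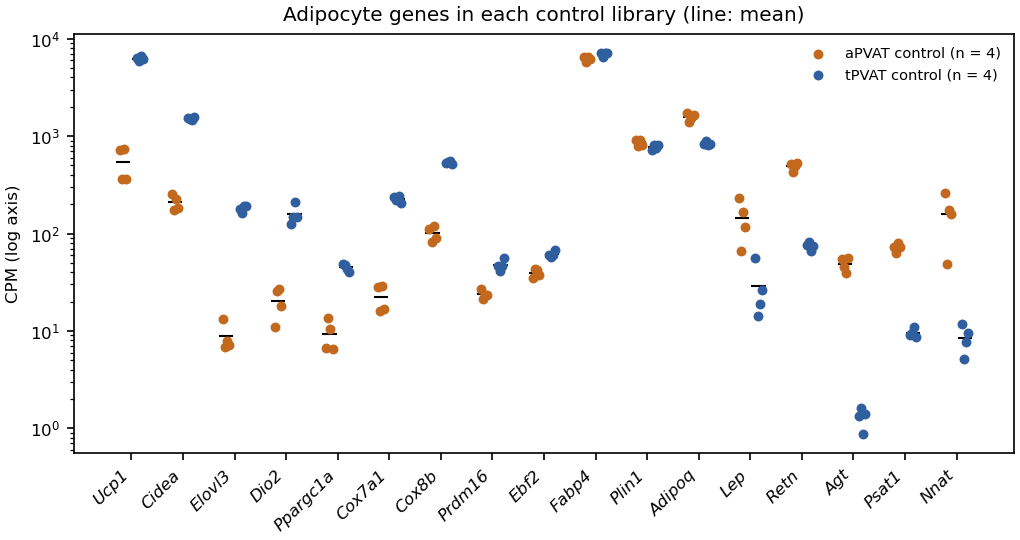
The level of each gene (CPM, log axis) is drawn for each of the 4 aPVAT (orange) and 4 tPVAT (blue) control libraries, with the mean as a line. The thermogenic genes on the left are lower in every aPVAT library, the libraries of the depots lie near each other for Fabp4 and Plin1, and the white-selective genes on the right are higher in aPVAT.

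Transcripts of the mitochondrial genome took 13%, 16%, 14.4% and 14% of all counts in aPVAT and 34.4%, 33.4%, 36.4% and 34.1% in tPVAT, a share that does not depend on the scaling. The means were 14.4% ± 1.23 and 34.5% ± 1.28 (SD, n = 4 each; exact permutation test, two-sided, p = 0.0286, the smallest that 4 against 4 can give). All 13 protein genes were higher in tPVAT, from mt-Co1 (-1.56) to mt-Nd2 (-2.57). The nuclear subunits of the respiratory chain and ATP synthase moved with them: 77 of 79 were higher in tPVAT, 71 of them at least 2-fold, with a median of -1.47 (-0.72 with total counts alone). The mobile electron carrier cytochrome c, encoded by Cycs, stood at 79.3 to 100 CPM in aPVAT and at 323 to 364 CPM in tPVAT (-1.98, SE 0.0868). The complex I genes Ndufab1 (-1.71) and Ndufv2 (-1.70), the complex IV gene Cox7b (-1.69) and the complex II gene Sdhd (-1.86) lay beyond the lower quartile of the list (-1.65). The exceptions were Atp5g1 (0.69, SE 0.099) and Atp5g3 (0.30, SE 0.0678), 2 genes for the c-ring of the ATP synthase. The other c-ring gene, Atp5g2, was higher in tPVAT (-0.64, a sign that turned with total counts alone).

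Subunits with a tissue-specific and a general isoform changed in proportion as well as in level. Cox7a1 is the heart and brown fat isoform of a cytochrome oxidase subunit and Cox7a2 the general one. Per exon length, Cox7a1 made up 32.1%, 24.5%, 31.6% and 23.1% of the transcripts of the pair in aPVAT and 63.5%, 60.4%, 61.9% and 62% in tPVAT. For Cox8b, the heart and brown fat isoform of another subunit, against Cox8a, the shares were 35.9% to 40.4% in aPVAT and 57.6% to 58.9% in tPVAT. Neither pair overlapped between depots (exact permutation test, two-sided, p = 0.0286 for each, and 0.0286 adjusted over the 3 shares tested). In differences of level, Cox7a1 (-3.33, SE 0.241) and Cox8b (-2.40, SE 0.118) exceeded Cox7a2 (-1.29, SE 0.0794) and Cox8a (-1.19, SE 0.0856). These shares are ratios within a library and do not depend on the scaling.

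The promoters of the respiratory chain genes were searched for the NRF1 motif (GCGCA, 1 base of any kind, then GCGC), the site of a factor that is known to drive respiratory chain genes, on both strands of 250 bases before to 50 after the RefSeq start (GRCm38.p6). Among the 65 nuclear subunit genes for which RefSeq gave a promoter, 17 held it (26.2%), against 5.19% of all 27025 genes with a promoter and 9.66% of the tested ones. The 17 include Atp5g3, which was higher in aPVAT, and Atp5g2, whose sign turned with total counts alone. A match describes the letters and does not show binding, and a link between motif and direction was not tested. The 200 bases before the start are shown for 3 of these genes to show how the motif sits in the promoter of a subunit gene, with each match in capitals. All 3 genes lie on the minus strand and are printed 5′ to 3′ of the gene. The complex II genes Sdha (chr13:74350241-74350440) and Sdhd (chr9:50603850-50604049) differed by -1.52 and -1.86, and the complex IV gene Cox6a1 (chr5:115348959-115349158) by -1.61.
Sdha: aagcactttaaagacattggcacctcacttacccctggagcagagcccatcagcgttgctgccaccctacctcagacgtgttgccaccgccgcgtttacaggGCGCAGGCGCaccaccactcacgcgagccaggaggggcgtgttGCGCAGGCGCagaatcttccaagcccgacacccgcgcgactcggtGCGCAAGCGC
Sdhd: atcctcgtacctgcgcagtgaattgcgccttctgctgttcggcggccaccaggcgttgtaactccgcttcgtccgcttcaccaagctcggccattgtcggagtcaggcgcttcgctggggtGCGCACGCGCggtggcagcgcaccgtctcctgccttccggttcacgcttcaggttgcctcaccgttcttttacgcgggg
Cox6a1: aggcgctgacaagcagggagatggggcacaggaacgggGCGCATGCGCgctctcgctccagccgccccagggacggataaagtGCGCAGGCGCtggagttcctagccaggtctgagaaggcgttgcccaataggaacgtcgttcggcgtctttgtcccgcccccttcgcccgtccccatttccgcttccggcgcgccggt

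Genes that feed the respiratory chain were higher in tPVAT. In fatty acid oxidation 24 of 25 were higher in tPVAT (median -1.55) and in the citric acid cycle and pyruvate entry 22 of 23 (median -1.69). Acsl5, which activates fatty acids, stood at 75.5 to 103 CPM in aPVAT and at 600 to 717 CPM in tPVAT (-2.95, SE 0.0924, adjusted p = 1.41e-11). Cpt1b, the muscle and brown fat form of the carnitine acyltransferase that lets fatty acids into mitochondria, was higher in tPVAT (1.8 to 3.59 against 19.4 to 21.6 CPM, -2.94). Its liver form Cpt1a was the 1 oxidation gene higher in aPVAT (61.5 to 73.5 against 39 to 48.5 CPM, 0.63, SE 0.0911). In the citric acid cycle the isocitrate dehydrogenase gene Idh3a (-2.21) and citrate synthase, Cs (-1.58), were higher in tPVAT, and the pyruvate carboxylase gene Pcx was the exception (0.53). Glycolysis leaned the same way, with 15 of 18 higher in tPVAT (median -1.38), among them Eno1 (-2.09), Pkm (-1.75) and Hk2 (-2.02). The 3 higher in aPVAT were Aldoc (0.81), the glucose transporter Slc2a1 (0.76) and Hk1 (0.20), which lost its call in 11 alternatives (adjusted p = 0.0567 to 0.127).

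Synthesis and storage of lipid differed less. Of 22 genes of fatty acid and triglyceride synthesis, 16 were higher in tPVAT, 2 were higher in aPVAT and 4 did not pass. The median of -0.77, against 0.04 for all genes, became -0.02 with total counts alone, against 0.78 for all genes under that scaling. Fasn, the fatty acid synthase, stood at 8199 to 9690 CPM in aPVAT and at 20769 to 24073 CPM in tPVAT (-1.31, SE 0.102). The desaturase gene Fads1 was higher in aPVAT (1.31, SE 0.0899), as was Fads2 (0.26). Among lipid droplet genes the coat protein gene Plin5 of oxidative tissues (-1.99) and Plin2 (-1.47) were higher in tPVAT. Plin4 (1.18) and Cidec (0.84), the latter known from large droplets, were higher in aPVAT. The lipase gene Lipe did not pass (-0.01, adjusted p = 0.949), and the lipase gene Pnpla2 differed by -0.54, which turned to 0.20 with total counts alone. Of 16 genes of creatine and calcium cycling 10 were higher in tPVAT and 4 in aPVAT, the latter Gatm (1.38) and Gamt (1.20), which make creatine, and the creatine kinases Ckb (0.56) and Ckmt1 (0.52). The 10 include Ckmt2 and Sln, which are among the striated muscle genes named above, so the count is not of adipocyte genes alone. Ckmt1 lost its call with the replicate block over 15 libraries (adjusted p = 0.0573) and without any 1 of 5 control libraries. The phosphatase gene Alpl (-1.72, SE 0.063) and the calcium pump gene Atp2a2 (-1.24) were higher in tPVAT.

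**Figure D4:**
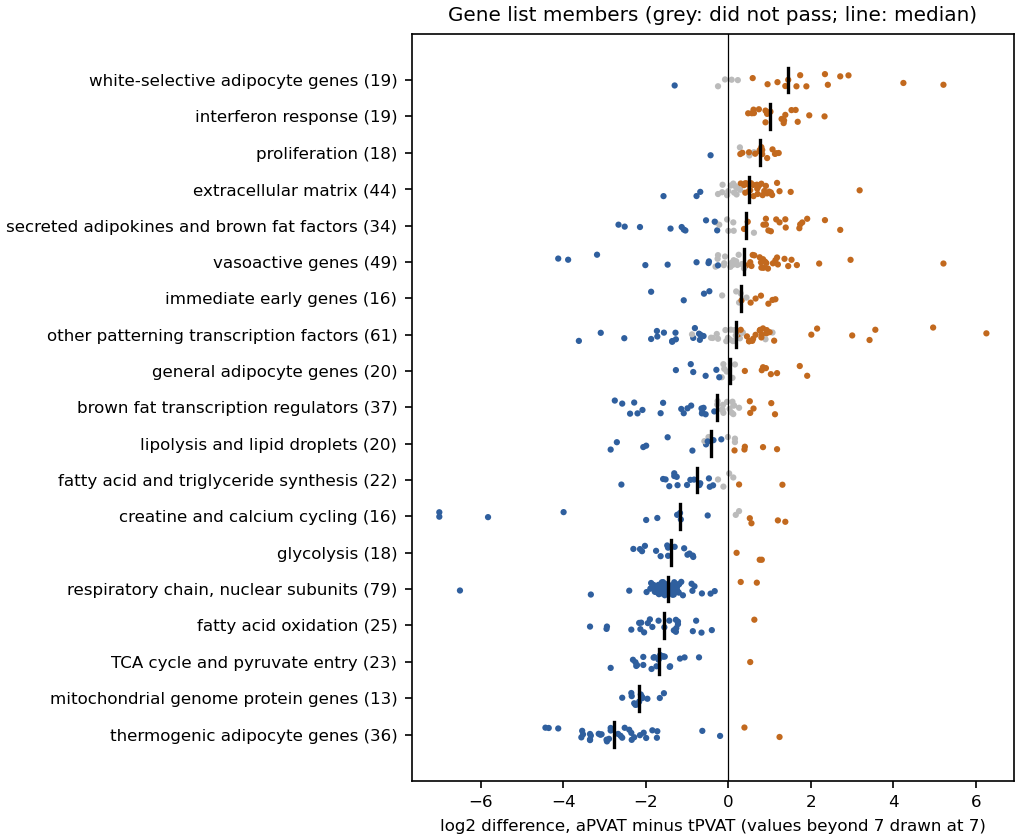
Each row is a gene list with the number of tested members in brackets, each point is a member's log2 difference, aPVAT minus tPVAT (orange and blue passed, grey did not), and the black line is the median. Medians run from -2.76 for thermogenic genes to 1.45 for white-selective genes.

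Genes that act on vessel tone were more often higher in aPVAT, with 24 of 49 tested higher in aPVAT, 9 higher in tPVAT and 16 not passing (median 0.38). Beside Agt, all 3 angiotensin receptor genes were higher in aPVAT: Agtr1a (8.51 to 10.7 CPM in tPVAT and 12.8 to 15.1 in aPVAT, 0.53), Agtr1b (2.96, SE 0.355) and Agtr2 (2.20, SE 0.447), the last 2 at under 2 CPM. The renin gene Ren1 (1.14), at about 1 CPM or less, and the converting enzyme gene Ace (0.43) passed in the same direction. The vasoconstrictor endothelin gene Edn1 stood at 11.6 to 17.7 CPM in aPVAT and at 3.56 to 5.68 CPM in tPVAT (1.66, SE 0.157), and its receptor Ednra was higher too (1.20). Nos3, the endothelial nitric oxide synthase, was higher in aPVAT (0.76, SE 0.0802), as were the chemerin receptor Cmklr1 (1.45) and chemerin, Rarres2 (0.85). Higher in tPVAT were the precursors of the vasodilator kinins, Kng2 (53.9 to 66.3 against 2.27 to 4.75 CPM, -4.12, SE 0.297) and Kng1 (-3.18), and the adrenergic receptor genes Adra1a (-2.01) and Adra1d (-0.77, not passing with total counts alone at -0.02).

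Of 34 genes for secreted adipokines and brown fat factors, 17 were higher in aPVAT and 10 in tPVAT. The growth factor gene Igf1 stood at 108, 166, 131 and 150 CPM in aPVAT and at 41.1 to 43.1 CPM in tPVAT (1.72, SE 0.111). Sfrp5, a Wnt inhibitor (1.74), Inhbb, an activin subunit (1.79), and Bmp4 (1.16) were higher in aPVAT. The factors known from brown fat stood on the other side: Pm20d1, which makes N-acyl amino acids (6.24 to 9.14 against 32.1 to 34.2 CPM, -2.14, SE 0.112), Vegfa (-1.08) and, at under 1 CPM, Fgf21 (-2.66) and Bmp8b (-2.51). Nrg4 differed by -0.54, a sign that turned with total counts alone.

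Matrix genes and fibroblast markers stood higher in aPVAT. Of 44 matrix genes 28 were higher in aPVAT, 3 were higher in tPVAT and 13 did not pass (median 0.50). Col6a5, a chain of collagen VI, stood at 63.8, 43.7, 63.7 and 68.7 CPM in aPVAT and at 5.06, 9.31, 5.81 and 6.17 CPM in tPVAT (3.18, SE 0.205), the largest difference of the list. The fibrillar collagens Col1a1 (0.91) and Col3a1 (1.03) and the proteoglycan decorin, Dcn (1.18), were higher in aPVAT. Higher in tPVAT were Col12a1 (-1.57), Postn (-0.77) and Loxl1 (-0.68). With total counts alone Postn did not pass (-0.02, adjusted p = 0.881) and Loxl1 turned to 0.07. Among 15 markers of fibroblasts and adipocyte progenitors, 10 were higher in aPVAT, with Gdf10 (1.54), Dpt (1.38) and Ly6a (1.0) leading, and F3 alone was higher in tPVAT (-0.19, turning to 0.56 with total counts alone, and not passing in 6 other alternatives). The summed level of these markers was 1319 to 1666 CPM in aPVAT and 852 to 956 CPM in tPVAT, and the part of cell numbers in the matrix result was not tested.

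Macrophage and T lymphocyte markers were higher in aPVAT. All 14 macrophage markers passed in that direction (median 0.93), with a summed level of 1424 to 1941 CPM in aPVAT and 755 to 912 CPM in tPVAT. Cd74, the invariant chain of antigen presentation, stood at 477 to 633 CPM in aPVAT and at 183 to 287 CPM in tPVAT (1.43, SE 0.138), and C1qa of the classical complement pathway at 96.4 to 152 and 53.9 to 60.8 CPM (1.0, SE 0.119). All 13 T lymphocyte markers passed too (median 1.63), at low levels: their sum was 25.4 to 57.8 CPM in aPVAT and 10.3 to 13.5 CPM in tPVAT. Cd3g stood at 2.59, 2.01, 1.85 and 4.01 CPM in aPVAT and at 0.949, 0.6, 0.758 and 0.619 CPM in tPVAT. B lymphocyte markers depended on single libraries: 7 of 12 passed, and aPVAT control 4 stood apart, as with Cd79a at 7.08, 4.77, 2.88 and 19.6 CPM in aPVAT against 2.7 to 4.02 CPM in tPVAT. Without that library 2 of 12 passed, with a median of 0.56 in place of 1.33. Without tPVAT control 1, 2 or 4 in turn, 4, 3 and 2 passed, with medians of 1.39, 1.35 and 1.22, whereas 11 to 13 of the 13 T lymphocyte markers passed whichever control library was left out. Of 8 tested markers of neutrophils and mast cells (median 0.21), the mast cell protease genes Tpsb2 (0.93), Mcpt4 (0.95), Cma1 (0.98) and Cpa3 (0.64) were higher in aPVAT. The mast cell receptor gene Kit (-0.59) and the neutrophil gene S100a9 (-1.61, at under 3 CPM) were higher in tPVAT, and 2 did not pass. Kit turned to 0.15 with total counts alone, and S100a9 did not pass with that scaling, with limma voom or without tPVAT control 1 (-0.98, adjusted p = 0.124). The scavenger receptor gene Marco, among the largest folds (4.12, SE 0.931), stood at 2.19, 1.49, 2.82 and 17.3 CPM in aPVAT, again highest in aPVAT control 4, and at 0.0689 to 0.593 CPM in tPVAT.

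Genes of the interferon response all passed, higher in aPVAT, in 19 of 19 cases (median 1.02), 10 of them at least 2-fold. Ifi27l2a stood at 958, 680, 743 and 898 CPM in aPVAT and at 219, 243, 174 and 207 CPM in tPVAT (1.96, SE 0.132). The chemokine gene Cxcl10 (2.08 to 4.07 against 0.495 to 0.675 CPM, 2.33, SE 0.243) and Irf7, the factor that amplifies interferon production (1.63, SE 0.218), followed. Some members were variable among libraries: Ifit1 stood at 8.23, 22.2, 12.3 and 9.96 CPM in aPVAT and at 2.97, 4.59, 5.74 and 7.02 CPM in tPVAT (1.38, SE 0.28). Between 17 and 19 of the 19 passed when any 1 control library was left out. The macrophage and T lymphocyte sums given above were also higher in every aPVAT library, and their part in this result was not tested.

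Of 14 interferon genes with a promoter in the RefSeq table, 10 held the interferon-stimulated response element (GAAA, 2 bases of any kind, then GAAA) on either strand (71.4%), against 3.99% of all 27025 genes with a promoter. None held the NRF1 motif, and 2 of 65 respiratory chain genes held the interferon element (3.08%). These counts describe letters and do not show binding. For 4 genes the 200 bases before the start are shown 5′ to 3′ of the gene on GRCm38.p6, with the element in capitals. They are Isg15, a ubiquitin-like modifier (chr4:156200819-156201018, minus strand, log2 difference 1.29), Ifit1 (chr19:34640689-34640888, plus strand, 1.38), Ifit3 (chr19:34583329-34583528, plus strand, 1.68) and Oas1a, a sensor of double-stranded RNA (chr5:120907526-120907725, minus strand, 1.34). In Isg15 3 matches overlap in 1 run and in Oas1a 2 do, and in Ifit1 and Ifit3 the element is read on the other strand, as TTTC, 2 bases and TTTC.
Isg15: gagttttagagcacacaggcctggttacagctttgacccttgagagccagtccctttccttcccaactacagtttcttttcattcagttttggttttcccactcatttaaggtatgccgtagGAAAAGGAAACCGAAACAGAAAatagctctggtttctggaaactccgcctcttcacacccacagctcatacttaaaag
Ifit1: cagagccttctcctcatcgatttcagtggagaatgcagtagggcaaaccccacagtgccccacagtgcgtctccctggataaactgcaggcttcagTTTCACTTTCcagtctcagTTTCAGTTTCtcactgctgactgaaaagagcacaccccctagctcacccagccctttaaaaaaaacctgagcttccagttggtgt
Ifit3: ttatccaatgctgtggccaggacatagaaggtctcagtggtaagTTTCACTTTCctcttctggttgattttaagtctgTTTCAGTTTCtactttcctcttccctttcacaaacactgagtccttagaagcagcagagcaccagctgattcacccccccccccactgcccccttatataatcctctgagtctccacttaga
Oas1a: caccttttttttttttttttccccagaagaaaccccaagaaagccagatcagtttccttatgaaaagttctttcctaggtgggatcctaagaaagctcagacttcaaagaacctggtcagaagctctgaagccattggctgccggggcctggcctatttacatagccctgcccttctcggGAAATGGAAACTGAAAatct

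Cell cycle genes were modestly higher in aPVAT, with 14 of 18 higher in aPVAT, 1 higher in tPVAT (Tyms, -0.43, turning to 0.32 with total counts alone) and 3 not passing (median 0.76). The replication genes Mcm3 (0.65) and Rrm2 (0.76) led by p, while Mki67, a marker of cycling cells, did not pass (0.51, adjusted p = 0.112) but did without aPVAT control 1 (0.72, adjusted p = 0.0173). Of 16 immediate early genes, which respond to stimulation and to dissection within minutes, 7 were higher in aPVAT and 4 in tPVAT, against 13 and 1 with total counts alone. Fos (1.07) and Egr2 (1.14) were higher in aPVAT and the orphan receptor genes Nr4a2 (-1.87), Nr4a1 (-1.08) and Nr4a3 (-0.59, turning to 0.15 with total counts alone) in tPVAT. Egr2 is also counted among the Schwann cell genes below. Fos did not pass without aPVAT control 2 (0.74, adjusted p = 0.0642), nor Nr4a1 with total counts alone (-0.32, adjusted p = 0.258).

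Nerve genes were higher in aPVAT. Of 16 sympathetic neuron genes 15 were higher in aPVAT, none was higher in tPVAT, and Syt1 did not pass (0.32). Th, which makes the precursor of noradrenaline, stood at 72.1, 76.8, 110 and 94.6 CPM in aPVAT and at 49.1, 38.5, 41 and 63.9 CPM in tPVAT (0.88, SE 0.217). Its partner enzyme Dbh differed by 1.03 (SE 0.198), and the cotransmitter neuropeptide Y, Npy, by 2.19 (69.4 to 86.9 against 12.4 to 23.1 CPM, SE 0.194). The summed level of these markers was 979 to 1539 CPM in aPVAT and 549 to 872 CPM in tPVAT. Schwann cell genes went with them, 11 of 12 higher in aPVAT with a median of 1.26, among them the myelin genes Prx (1.72) and Ncmap (2.16). The exception was S100b (-1.73, SE 0.178), which brown adipocytes also express.

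Of 15 endothelial genes 12 were higher in aPVAT and 1 in tPVAT, with a median of 0.34. Plvap, the diaphragm protein of fenestrated capillaries (135 to 178 against 45.4 to 61.8 CPM, 1.53, SE 0.111), Vwf (1.35) and Cldn5 (1.27) were higher in aPVAT, and Kdr, the VEGF receptor, was higher in tPVAT (-0.46, turning to 0.28 with total counts alone). Lymphatic genes were higher in aPVAT in 6 of 7 cases, led by the chemokine gene Ccl21a (1.76) and the lymphatic identity gene Prox1 (1.15). Smooth muscle genes, which would report aortic wall in the samples, were higher in tPVAT in 5 of 13 cases, and 7 did not pass, including Myh11 (504 to 843 CPM in aPVAT and 644 to 775 CPM in tPVAT, -0.11, adjusted p = 0.537) and Acta2 (-0.22, adjusted p = 0.248). With limma voom both passed, higher in tPVAT (-0.31, adjusted p = 0.0251, and -0.36, adjusted p = 0.0276), and Acta2 also passed with the replicate block in the 8 control libraries (-0.29, adjusted p = 0.0284). The 5 higher in tPVAT were Itga8 (-1.53), Kcnmb1 (-0.76), Myocd (-0.64), Smtn (-0.36) and Synpo2 (-0.32), of which Itga8 alone passed in that direction with total counts alone, and Actg2 was higher in aPVAT (0.44, which did not pass in the 8 control libraries alone). Smtn did not pass with upper quartile scaling or without aPVAT control 3 or 4 or tPVAT control 2 or 3. Pericyte genes split, with Notch3 (0.52) and Rgs5 (0.41) higher in aPVAT and Higd1b (-0.74), Cspg4 (-0.36), Kcnj8 (-0.30) and Abcc9 (-0.27) higher in tPVAT, none of which kept that sign with total counts alone. Rgs5 did not pass in the 8 control libraries alone (adjusted p = 0.12), with the replicate block, or without aPVAT control 2 (0.19) or tPVAT control 1, 2 or 4. The 6 red blood cell genes were higher in tPVAT (median -1.48), with Hbb-bs at 80.5 to 136 CPM in aPVAT and 225 to 386 CPM in tPVAT. Of the mesothelial genes 9 of 11 did not pass (median -0.53), with Msln (-1.65) and Krt18 (-0.66, turning to 0.08 with total counts alone) higher in tPVAT, and aPVAT control 2 low (a sum of 54.7 CPM against 100 to 155 CPM in the other aPVAT libraries). Without tPVAT control 2 no mesothelial gene passed, and with total counts alone neither Msln (-0.90, adjusted p = 0.143) nor Krt18 did.

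Heart muscle genes were read in every tPVAT library and stood lower in every aPVAT library. All 13 tested cardiac markers were higher in tPVAT (median -4.35), and their summed level was 25.9 to 30.9 CPM in aPVAT and 257, 259, 340 and 262 CPM in tPVAT. Myh6, the heavy chain of adult mouse heart muscle, stood at 0.209, 0.228, 0.162 and 0.184 CPM in aPVAT and at 84.4, 91.7, 121 and 93.3 CPM in tPVAT (-8.96, SE 0.413, adjusted p = 1.47e-10; chromosome 14, 54941921 to 54966927). Among the myosin light chains Myl7 (0.0928 to 0.417 against 14.9 to 20.9 CPM) and Myl4 (1.76 to 2.43 against 26 to 39.3 CPM) were present. Myl3, the other tested light chain gene of the list, was also at least 2-fold higher in tPVAT. The light chain gene Myl2 and the cardiac factor Nkx2-5 had too few reads to be tested. Sln, an inhibitor of the calcium pump, had 6 reads in the 4 aPVAT libraries together and stood at 6.55 to 9.19 CPM in tPVAT. Ckmt2, the mitochondrial creatine kinase of striated muscle, had no read in aPVAT and 206 to 301 reads in each tPVAT library, at least 551-fold higher. Actn2, Tnnt2, Tnni3 and Mb showed the same separation, with Mb at 0.245 to 0.335 CPM in aPVAT and 28.5 to 39.3 CPM in tPVAT. The labels name no heart muscle in the samples, and where these reads came from was not tested.

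Skeletal muscle genes were higher in tPVAT as well, in 11 of 14 cases (median -2.45), but some of them mostly in 1 library. Their summed level was 26.4, 29.1, 38.7 and 97.6 CPM in tPVAT libraries 1 to 4 and 8.13 to 12.5 CPM in aPVAT. Acta1 stood at 1.78, 2.79, 3.38 and 25.2 CPM in tPVAT libraries 1 to 4 and at 0.914 to 4.09 CPM in aPVAT, and did not pass (adjusted p = 0.0561), though it did without aPVAT control 1 or any 1 of tPVAT controls 1 to 3. Myh2, a fast fibre myosin, stood at 0.851, 0.899, 2.16 and 10 CPM in tPVAT, and did not pass without tPVAT control 4. Without tPVAT control 4, 8 of the 14 were higher in tPVAT, with a median of -1.07. Myh7, shared by slow fibres and heart, was even among the tPVAT libraries (4.13 to 6.53 CPM against 0 to 0.0858 CPM in aPVAT, -7.19). Casq1 stood at 7.34, 9.35, 9.65 and 6.24 CPM in tPVAT, lowest in tPVAT control 4, and at 0.944 to 1.38 CPM in aPVAT (-2.80, SE 0.2). Actn3, an actinin of fast fibres, was higher in aPVAT (1.63, SE 0.319). Cardiac genes did not depend on that library, as all 13 passed without it.

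**Figure D5:**
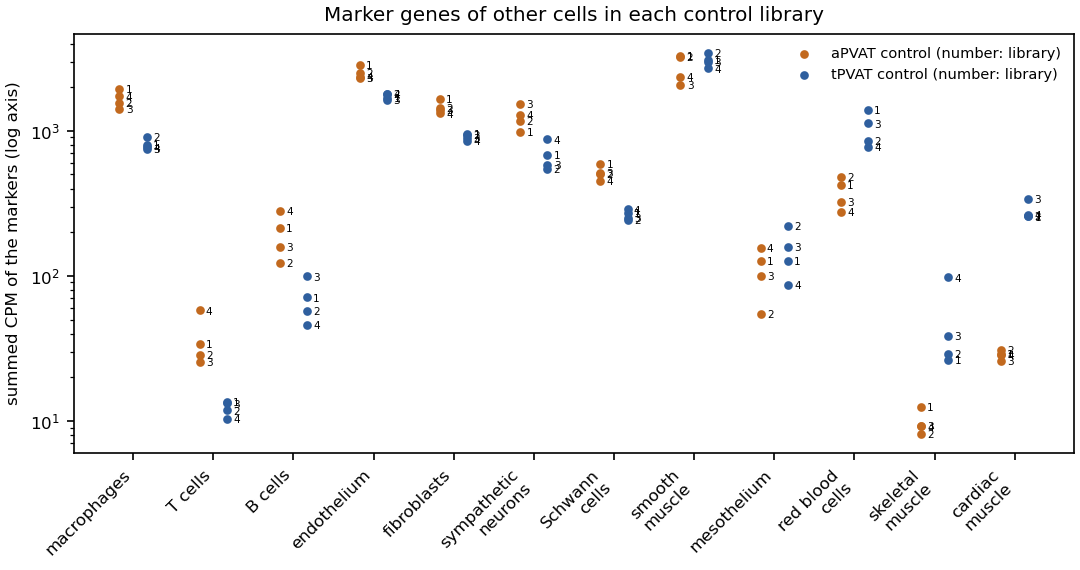
The summed CPM of each marker list (log axis) is drawn for each control library, orange for aPVAT and blue for tPVAT, with the library number beside the point. Cardiac sums of 257 to 340 CPM in tPVAT lie above 25.9 to 30.9 CPM in aPVAT, skeletal muscle is highest in tPVAT control 4, and lymphocyte sums are highest in aPVAT control 4.

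Markers of neighbouring organs were few. Of the kidney, lung, liver and pancreas lists most members had too few reads or did not pass, and no summed level exceeded 17.7 CPM. The 9 that passed were Lrp2, an endocytic receptor (0.975 to 2.64 CPM in aPVAT and 4.95 to 16.9 CPM in tPVAT, -2.29), and 8 genes at under 3 CPM. Of these Aqp2 (2.38), Foxj1 (1.66), Cpb1 (2.29), Ager (1.28), Cubn (0.70), Serpina1a (0.74) and Cela1 (0.67) were higher in aPVAT, and Apoa2 (-0.88) was higher in tPVAT. Cela1 did not pass without aPVAT control 3 or tPVAT control 1 or 4 (adjusted p = 0.0502 to 0.0547), nor Apoa2 with total counts alone (-0.14) or without tPVAT control 1. Of the adrenal list the receptor gene Mc2r (2.61 to 4.55 against 0.689 to 1.52 CPM, 1.69), which adipocytes also express, and the neuroendocrine gene Chga (0.85) passed, and the cortical enzyme gene Cyp11b1 had 40 reads in aPVAT and 1 in tPVAT. Of the thymocyte list Rag1 (0.115 to 1.09 CPM in tPVAT and 0.0232 to 0.122 in aPVAT, -3.54) and Tcf7 (1.08) passed in opposite directions. Tcf7 was highest in aPVAT control 4 (9.72 CPM), where the T lymphocyte sum was highest too (57.8 CPM). Rag1 overlapped between depots, was highest in tPVAT control 1 (1.09 CPM) and 2 (0.731 CPM), and did not pass without tPVAT control 1 (adjusted p = 0.0676). Of the cartilage list Acan was higher in tPVAT (-2.25), and Col11a1 (1.54), Sox9 (0.69) and Comp (0.60) were higher in aPVAT.

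Within the groups the aPVAT libraries varied more than the tPVAT libraries on the second axis (8.39% of the variance), which set aPVAT control 1 (44.2) and aPVAT control 2 (-36.3) apart with all tPVAT libraries between -6.8 and 6.93. On the third axis (5.69%) the tPVAT libraries varied more, from -28.2 to 33.55, against -8.643 to 10.05 in aPVAT. The share of counts on structural RNA, ribosomal RNA included, was 1.16% in aPVAT control 2 and 0.0917% to 0.239% in the other 7 control libraries. Genes with reads in all 4 libraries of 1 depot (at least 10 each) and none in the other, a rule set after the values were seen, were few. In aPVAT they were Hoxa11, Hoxa11os, Hoxc11, the interleukin subunit gene Il12b, Gm5127 and Gm8895. In tPVAT they were Ckmt2, Xirp2, Mybphl, Trim54 and Yipf7, the first 4 of which are known from striated muscle.

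The depot difference was tested against the same difference in cKO mice. It differed for 154 of 19645 genes (0.784%), more of them lower (123) than higher (31) in the sense of aPVAT minus tPVAT. Of the 154, 134 were among the genes that differed between control depots, which made up 56.6% of all genes tested. Both tests use the same control libraries, so part of this overlap is built in. Agt lost most of its depot difference in cKO: it was 5.21 in controls and 0.83 in cKO (interaction -4.38, SE 0.253, adjusted p = 1.45e-07). For Ucp1 the difference was -3.52 in controls and -7.74 in cKO (interaction -4.22). Cidea, Cox7a1, Fabp3 and Cpt1b behaved like Ucp1, with interactions of -1.55, -2.83, -3.65 and -2.88. Retn, Psat1, Igf1 and Cfd also had negative interactions, of -1.42, -1.07, -0.93 and -0.91. Their depot differences were 2.71, 2.91, 1.72 and 1.91 in controls and 1.29, 1.84, 0.80 and 1.01 in cKO. For Pm20d1 the interaction was positive (0.96). Prdm16 itself, the targeted gene, did not pass this test.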

How the data were processed

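RNA was measured in snap-frozen thoracic and abdominal aortic perivascular fat by stranded, poly(A)-selected RNA-seq, per the labels' protocols. The authors deposited 1 table of raw read counts per gene for 15 libraries; per the submitters' processing notes Salmon, Subread, DESeq2 1.42.1 and mm10 were used. Which of these made the counts, with what annotation and strand setting, is not given in the sources used here. Those genes with an annotated neighbour on the other strand, among those named Prdm16, Gmpr, Elovl3, Myh6, Myh7, Mb, Cox6a2, Ckmt2, Ttn, Nnat, Hoxa11, Hoxa4, Dio2, Fabp3, Pitx1, Me3, Acsl5, Edn1, Nrg4 and mt-Co1, may therefore hold reads of that neighbour. One cKO aPVAT library (number 2) was not analysed here.

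From the counts as deposited, the low-count filter filterByExpr (setting 10) left 19645 of 43352 genes, holding 99.98% of the counts, libraries were scaled by TMM, and edgeR 4.0.16 in R 4.3.3 fitted 4 group means to all 15 libraries with its quasi-likelihood test and Benjamini-Hochberg adjustment over all genes tested at 0.05. The common biological coefficient of variation was 0.142. Values for a gene with no read in 1 group are lower bounds against a floor of 3 counts over that group. Counting intervals and floors cover counting error only. Per-length shares used GENCODE M21 exon lengths, and 98% of identifiers were in that annotation (GRCm38). The fit was also run on simulated counts, with means and 1 common spread for all genes taken from the main fit. The outcome is not reported here. Alternatives were other scalings, no count filter, DESeq2 1.42.0, limma 3.58.1 voom, the 8 control libraries alone, the replicate number as block and leaving out each control library. Total-count scaling was added after seeing the data.

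Named genes were a fixed panel, the 15 largest folds in each direction (protein-coding genes whose groups did not overlap, at a mean log2 CPM of 1 or more), the 8 largest CPM differences in each direction and up to 4 members of each list with the smallest p. A few genes that these rules name are not reported here. Other list members named were chosen after their values were seen. The comparison, the 42 gene lists and these rules were chosen with earlier results of these data known.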

Additional observations from a re-analysis of the deposited data

Results flagged for a closer look

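Of 540 groups of 4 libraries examined for the values given above, 35 held a library whose gap to the nearest of the others passed Dixon's critical value; chance alone flags about 1 group in 20. No explanation was tested for any of them.

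In aPVAT, control 1 was highest for Elovl3 (13.4 CPM), Nr4a2 (4.1 CPM), Mcpt4 (34.7 CPM), Cma1 (17.7 CPM), Cpa3 (21.4 CPM), Gdf10 (176 CPM), Adra1d (5.48 CPM) and Zfp423 (40.7 CPM). Control 2 was highest for Nr2f2 (77.9 CPM), Itga8 (126 CPM), Synpo2 (82 CPM), Rag1 (0.122 CPM) and the share of structural RNA (1.16%), and lowest for Atp5g3 (172 CPM). Control 3 was highest for Ppara (28.7 CPM) and Nrg4 (126 CPM), and control 4 was highest for Marco (17.3 CPM).

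In tPVAT, control 1 was highest for Hoxc10 (0.495 CPM) and held the single read of Cyp11b1 and of Pitx1 (0.0198 CPM each). Control 2 was highest for Cd74 (287 CPM) and Col1a1 (491 CPM) and lowest for Car3 (3314 CPM), mt-Nd2 (29392 CPM) and Fabp4 (6491 CPM). Control 3 was highest for Slc16a12 (0.896 CPM), Tnni3 (25.1 CPM), Tnnt2 (35.9 CPM) and Eno1 (375 CPM) and lowest for Cmklr1 (38.1 CPM) and Cpb1 (0.0919 CPM). Control 4 was highest for Acta1 (25.2 CPM), Myh2 (10 CPM), Agtr2 (0.275 CPM) and Gatm (9.56 CPM).

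The depot difference in cKO minus that in controls passed edgeR's quasi-likelihood test for 19 of the genes named. It was -4.38 for Agt, -4.22 for Ucp1, -3.65 for Fabp3, -2.88 for Cpt1b, -2.83 for Cox7a1 and -1.55 for Cidea. It was -4.29 for Bmp8b, which lay under 1 CPM in both depots. It was -1.73 for Cela1 and -1.61 for Serpina1a. For Retn it was -1.42, for Cyp2e1 -1.32, for Slc16a12 -1.25, for Psat1 -1.07, for Igf1 -0.93 and for Cfd -0.91. Alpl (-0.88), Hoxb8 (-0.64) and Pm20d1 (0.96) passed too. The fitted value of -6.89 for Gm8895, which had no read in control tPVAT, depends on the fit's prior count and is not a measured fold.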

How the results depend on the processing

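The number of genes that differed between the control depots lay between 9997 and 16037 under all alternatives run, and between 10242 and 11158 (5260 to 5716 higher in aPVAT, 4968 to 5442 higher in tPVAT) when 1 control library was left out. Scaling by total counts alone, added after seeing the data, gave 14618 genes higher in aPVAT and 1419 higher in tPVAT. The interaction count was 118 to 189 without 1 control library and 350 by DESeq2; the cause was not tested. The labels do not say whether equal replicate numbers in the 2 depots mark the same animal. Deviations from the group mean correlated at 0.00273 to 0.0482 between same-numbered control libraries of the depots, and at -0.123 to 0.104 between other numbers. These values cannot decide the pairing, because the 2 tissues of 1 animal need not deviate alike. With the replicate block 9997 genes passed in the 8 control libraries and 10765 in all 15, with an interaction count of 148. Under total counts alone the sign turned for Lhx8 (0.05), Tbx15 (0.14), Hoxb6 (0.12), Hoxa2 (0.10), Hoxa3 (0.13), Hoxa7 (0.29), Hoxb8 (0.31), Ebf2 (0.11), Irf4 (0.59), Pparg (0.19), Fabp4 (0.58), Lpl (0.65), Lipe (0.74), Pnpla2 (0.20), Nrg4 (0.21), Atp5g2 (0.11), Loxl1 (0.07), F3 (0.56), Tyms (0.32), Nr4a3 (0.15), Kit (0.15), Krt18 (0.08) and Kdr (0.28). It also turned for the smooth muscle genes Myocd (0.11), Synpo2 (0.43), Smtn (0.39), Acta2 (0.52) and Myh11 (0.63), and the pericyte genes Higd1b (0.01), Abcc9 (0.47), Kcnj8 (0.44) and Cspg4 (0.38). Genes that did not pass and lay near 0 turned elsewhere: Lipe with upper quartile scaling (0.09), without the count filter (0.02) and without 1 library (-0.07 to 0.04), Lpl without 1 library (-0.19 to 0.06), Myh11 without 1 library (-0.24 to 0.01), and Wt1 without aPVAT control 4 (-0.16) or tPVAT control 4 (-0.06). Calls were also lost for Cd79a with limma voom, with the replicate block (adjusted p = 0.105 and 0.0818) and without aPVAT control 4 (0.58, adjusted p = 0.228) or tPVAT control 1, 2 or 4, for Myh2 with limma voom and the replicate block, for Abcc9, Kcnj8 and Synpo2 with upper quartile scaling, and without tPVAT control 3 for Fads2 (0.22) and Nrg4 (-0.45). With total counts alone Mki67 (1.26), Plin1 (0.90), Wt1 (0.90), Syt1 (1.07) and Zfp516 (0.82) passed. Genes of a few reads per library are limited by depth.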
